A study of Mus musculus with 16 samples.

Results

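The genes described here are the receptors for opioid and orexin peptides in the dorsal raphe nucleus (DRN) of the mouse. They were chosen by name and not by a rule on measured values, though with earlier results of these data known: Oprm1, Oprk1, Oprd1, Oprl1, Hcrtr1 and Hcrtr2. Of these 6 genes, 5 were analysed among the 14504 genes of the normalized count table, namely 3 opioid receptor genes and 2 orexin receptor genes. Oprd1 was not analysed here.

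All tissue came from adult male C57BL/6 mice, and polyA RNA of the DRN was sequenced in 16 libraries. Control mice, housed singly before the injection, gave 3 libraries after saline and 3 after dexamethasone (DEX), a synthetic agonist of the glucocorticoid receptor. The other mice had lived through 30 days of chronic social defeat by CD1 males and were sorted by how they behaved toward the CD1 partner while it did not attack, into passive coping (PS, labeled dep1) and active coping (AS, labeled dep2) animals. PS mice gave 2 saline and 3 DEX libraries, and AS mice gave 3 saline and 2 DEX libraries. DEX was given at 2 mg/kg, saline injection served as its control, and tissue was taken 6 h after either injection. The DRN was punched from frozen sections, so each library holds a mixture of cell types, and fewer cells of a type cannot be told apart from less RNA per cell. The study had left out DEX samples of stressed mice with low Tph2, so the level of this serotonin synthesis gene is set in part by that choice. The methods text of the study describes more DRN samples than the 16 libraries here, and this removal does not account for the difference. The study's methods call the samples of a condition biological replicates, and p-values measure the spread between these libraries.

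Opioid receptors couple to inhibitory G proteins of the Gi/o class, which open inwardly rectifying potassium channels, close calcium channels and lower cyclic AMP. Oprm1 encodes the mu receptor, the main target of morphine and of endorphin and enkephalin, Oprk1 the kappa receptor for dynorphin, and Oprl1 the receptor for nociceptin. The orexin receptors Hcrtr1 and Hcrtr2 answer the wake-promoting orexin peptides of the lateral hypothalamus, act largely through Gq and excite raphe neurons. In the raphe, mu receptors are known for their action on local inhibitory neurons, and kappa and nociceptin receptors for a direct inhibition of serotonin neurons.

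Libraries held 38207157 to 62447298 reads in the listed genes. Tph2 was found at 91760 to 182200 normalized counts, and Fkbp5, a glucocorticoid target gene, at 1241 to 1536 in the 8 saline libraries and at 5578 to 6958 in the 8 DEX libraries, which did not overlap. Marker genes of serotonin neurons were all present (6 of 6), and those of dopamine, GABA and glutamate neurons were present as well (3 of 3, 3 of 3 and 2 of 2). Neither of the 2 markers of noradrenaline neurons was analysed here. The libraries differed in marker RNA of cells that surround the nucleus. The summed normalized count of 5 ependymal cell markers ranged from 2102 to 6804 in saline libraries and from 837 to 9205 in DEX libraries, and that of 3 motor neuron markers from 94.97 to 8260 and from 250 to 4504. Because the study acts on a transcription factor that binds DNA, the sequence upstream of the receptor genes is shown first.

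The glucocorticoid receptor binds DNA as a pair, and the motif TGTTC that each partner reads was searched on both strands in the 250 bases before each transcript start that RefSeq gives on GRCm38.p6. Windows were found for 4 of the 5 receptors, 10 windows in all, and Oprk1 had none. Of all 32851 windows of the table, 36.2% held the motif, and 0.0396% (13 windows) held the full pair, spelled GAACANNNTGTTC, which contains the single motif. None of the 10 receptor windows held the full pair, and 4 of them held the single motif. At so low a share of all windows, the absence of the full pair from 10 windows says little. Hcrtr2 (chr9:76323624-76323873, minus strand) held none, and Hcrtr1 held 1 in 1 of its 3 windows. The windows of Oprl1 held 2, 0 and 3 motifs, and those of Oprm1 held 1, 0 and 0. The Oprm1 windows without the motif (chr10:6788320-6788569 and 6788326-6788575) overlap almost fully, so they are not separate sequences. Of all windows, 8.76% held 2 or more motifs. The longest stretches outside the annotated gene are shown for Oprl1, the most abundant receptor, with 2 motifs (chr2:181714766-181715015, plus strand), and for Oprm1, the most variable one, with 1 motif (chr10:6758343-6758505, plus strand). Capitals mark the motif on either strand.
Oprl1: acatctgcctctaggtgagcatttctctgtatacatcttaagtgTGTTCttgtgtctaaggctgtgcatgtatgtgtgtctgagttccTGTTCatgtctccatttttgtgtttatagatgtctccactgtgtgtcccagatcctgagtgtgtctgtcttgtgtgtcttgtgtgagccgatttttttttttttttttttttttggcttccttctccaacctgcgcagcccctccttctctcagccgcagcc
Oprm1: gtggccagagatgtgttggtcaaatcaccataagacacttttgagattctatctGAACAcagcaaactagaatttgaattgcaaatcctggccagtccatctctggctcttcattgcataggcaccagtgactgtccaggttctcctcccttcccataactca
Matches of these letters are a description of the sequence, and occupancy was not measured.

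The first question was how much of each receptor transcript the DRN held. Oprl1, on chromosome 2 (GRCm38, 181715016 to 181720985, ENSMUSG00000027584.16), was the most abundant, with 5150 to 7983 normalized counts and a mean of 6275 ± 586 (SD, n = 16). Hcrtr1, on chromosome 4 (130130217 to 130139359, ENSMUSG00000028778.15), followed with 2058 to 3347 and a mean of 2452 ± 391 (SD, n = 16). Oprk1, on chromosome 1 (5588466 to 5606131, ENSMUSG00000025905.13), ranged from 1017 to 1650. Hcrtr2, on chromosome 9 (76225880 to 76323856, ENSMUSG00000032360.16), ranged from 494 to 1149. Oprm1, on chromosome 10 (6758506 to 7038198, ENSMUSG00000000766.18), was the lowest, with 134 to 591. All 5 are protein coding genes. Ipcef1, a protein coding gene on the opposite strand, covers 96 exon bases of Oprm1 (1.19% of its exon length). The study describes its libraries as strand-specific, but whether the counting used the strand was not stated.

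Levels of different genes were compared per kilobase (kb) of annotated exons. Oprl1 had 1672 ± 156 normalized counts per kb (SD, n = 16), higher than 91.6% of all genes with a length. Hcrtr1 had 940 ± 150 (SD, n = 16) and lay above 83.7% of the genes. Oprk1 and Hcrtr2 were close to each other, with 141 ± 19.1 and 111 ± 28.0 per kb (SD, n = 16), above 33.0% and 27.0% of the genes. Oprm1 had 40.5 ± 17.7 per kb (SD, n = 16) and lay above 4.67% of the genes. The nociceptin receptor and orexin receptor 1 thus stood well above the other 3 receptors in these units.

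The order was taken from the means over these same libraries, and each step of it was then tested. The p-values measure the spread between libraries and not the choice of gene length. Oprl1 exceeded Hcrtr1 in 16 of 16 libraries, by 1.79-fold on average (exact sign-flip permutation test on log2 levels per kb, two-sided, p = 3.05e-05, the smallest this test can give, adjusted p = 4.07e-05 over 4 neighboring pairs). Hcrtr1 exceeded Oprk1 by 6.64-fold and Hcrtr2 exceeded Oprm1 by 2.92-fold, both in 16 of 16 libraries with the same permutation p. Oprk1 exceeded Hcrtr2 by 1.29-fold, in 13 of 16 libraries (permutation p = 0.00519, adjusted p = 0.00519). Fold sizes depended on the length used, and those above hold for annotated exons only. With the longest transcript the means per kb were 2023 (Oprl1), 1005 (Hcrtr1), 276.5 (Oprk1), 182 (Hcrtr2) and 134 (Oprm1). With the coding length they were 5699, 1965, 1134, 497 and 238. Hcrtr1 and Oprk1 lay closer together by coding length than by exon length, and Oprk1 and Hcrtr2 farther apart. The order of the 5 receptors was the same with each length.

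**Figure D1:**
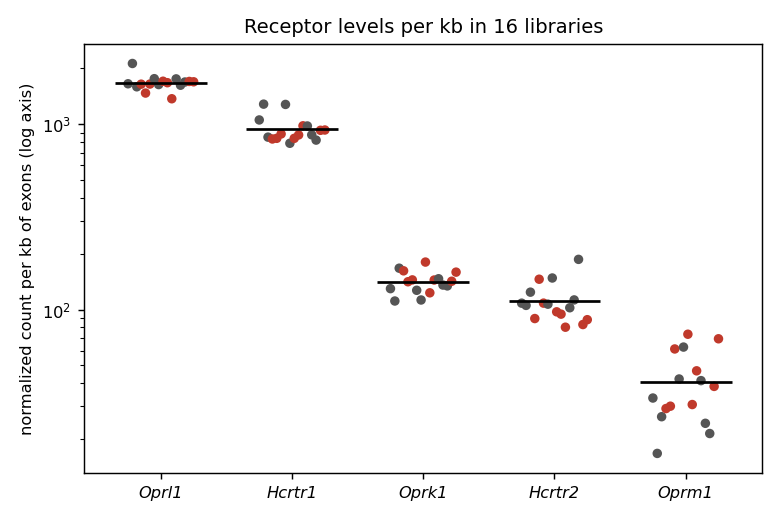
Normalized counts per kb of annotated exons (log axis) of the 5 receptors in the 16 libraries. Each point is 1 library (grey saline, red DEX) and the black line is the mean over libraries, which falls from 1672 for Oprl1 to 40.5 for Oprm1.

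The receptors also differed in how far libraries of 1 group lay apart. The spread within groups was 0.14 on the log2 scale for Oprl1 and 0.55 for Oprm1. Among genes whose mean lay within a factor of 2 of its own, Oprm1 was more variable than 90.7%, and their median spread was 0.25. Hcrtr2 (0.30) was more variable than 81.2% of such genes, Hcrtr1 (0.22) than 73.9%, Oprk1 (0.20) than 61.4% and Oprl1 than 38.1%. Counting error was small beside these values: Oprm1 rested on 132 to 580 reads in a library, a coefficient of variation from counting of 5.90%, and the other receptors on more. Differences of Oprm1 between groups were therefore measured with the least precision.

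The effect of DEX on the receptors was examined next, within each phenotype and as the average of the 3 phenotypes. In the limma fit over all genes, 0 of the 5 receptors passed an adjusted p of 0.1 in any of these comparisons. Over all genes, the share called was 1.26% for control mice, 0.703% for PS, 0.689% for AS mice and 4.31% for the average. At an unadjusted p under 0.05, 0 of 5 receptors passed for control mice (12.1% of all genes), 0 for PS mice (4.69%), 1 for AS mice (Hcrtr2, 9.36%) and 1 for the average (Hcrtr2, 14%). DESeq2 and edgeR on the recovered reads called 0 receptors as well. Over all genes DESeq2 called 3.01% for control, 1.29% for PS and 1.89% for AS mice and 6.23% for the average, and edgeR 1.24%, 0.696%, 0.703% and 4.29%. Of the average differences, that of Hcrtr2 had the lowest limma adjusted p (0.263), followed by Oprk1 (0.398) and Oprm1 (0.427). Within a phenotype the largest log2 differences were those of Oprm1 in AS and controls and of Hcrtr2 in AS and PS.

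Hcrtr2 in PS mice was at 658 (dep1_sal_62) and 912 (dep1_sal_68) normalized counts after saline, and at 599 (dep1_dex_6), 582 (dep1_dex_34) and 494 (dep1_dex_64) after DEX. In AS mice it was at 630 (dep2_sal_8), 694 (dep2_sal_14) and 1149 (dep2_sal_40) after saline, and at 511 (dep2_dex_38) and 543 (dep2_dex_42) after DEX. In both stressed phenotypes the highest DEX value thus lay below the lowest saline value. The libraries of the 2 treatments did not overlap for 1 of 5 receptors in each of these comparisons, against 21.3% of all genes in PS and 29.8% in AS. In control mice Hcrtr2 was at 667 (con_sal_102), 649 (con_sal_104) and 764 (con_sal_114) after saline and at 551 (con_dex_101), 898 (con_dex_116) and 667 (con_dex_122) after DEX, with full overlap. None of the 5 receptors separated by treatment in controls, where 15.9% of all genes did.

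The log2 difference of Hcrtr2 between DEX and saline was -0.48 in PS (SE 0.25, 95% confidence interval -1.01 to 0.06, limma adjusted p = 1.0) and -0.59 in AS (SE 0.25, interval -1.13 to -0.06, limma adjusted p = 0.507). In controls it was -0.0011 (SE 0.22, interval -0.48 to 0.48, limma adjusted p = 0.999). Averaged over phenotypes it was -0.36 (SE 0.14, interval -0.66 to -0.06, limma adjusted p = 0.263), and 1 of the 29 other fits of this average called it (range of adjusted p 0.0900 to 0.617). That fit gave each library a quality weight (log2 difference -0.32, limma adjusted p = 0.0900) and called 9.16% of all genes in place of 4.31%, but the estimate of its weights stopped before it converged. With weights from limma's gene-by-gene method, chosen after seeing this, the difference was -0.33 and was not called (limma adjusted p = 0.113). The differences between phenotypes in the DEX effect of Hcrtr2 were not called either: -0.48 for PS against controls (interval -1.19 to 0.24, limma adjusted p = 1.0) and -0.59 for AS against controls (interval -1.31 to 0.13, limma adjusted p = 0.941). In PS the difference was -0.24 without dep1_sal_68 (limma adjusted p = 1.0), and it ran from -0.71 to -0.24 with 1 library left out at a time. In AS the value rests in part on dep2_sal_40, which had the lowest weight of all libraries by the gene-by-gene method (0.189), and without it the difference was -0.33 (limma adjusted p = 1.0, range over the alternatives 0.146 to 1.0).

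Microglia markers moved with DEX in the same libraries. The microglia score, the mean log2 deviation of 4 markers, lay between 0.09 and 0.53 in saline libraries and between -0.31 and -0.02 in DEX libraries. The other marker scores overlapped, that of serotonin neurons among them (-0.22 to 0.35 and -0.21 to 0.15). In control mice, where Hcrtr2 overlapped between treatments, the microglia score was at 0.09 to 0.29 after saline and at -0.28 to -0.11 after DEX. The part of these cells in the value of Hcrtr2 was not tested.

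Oprm1 in control mice was at 268 (con_sal_102), 134 (con_sal_104) and 212 (con_sal_114) after saline, and at 235 (con_dex_101), 242 (con_dex_116) and 492 (con_dex_122) after DEX. In AS mice it was at 332 (dep2_sal_8), 195 (dep2_sal_14) and 172 (dep2_sal_40) after saline, and at 309 (dep2_dex_38) and 559 (dep2_dex_42) after DEX. In PS mice it was at 339 (dep1_sal_62) and 504 (dep1_sal_68) after saline, and at 591 (dep1_dex_6), 247 (dep1_dex_34) and 375 (dep1_dex_64) after DEX. The highest values came from DEX libraries of each phenotype, but saline and DEX libraries overlapped in all 3. The log2 difference was 0.62 in controls (SE 0.40, interval -0.24 to 1.48, limma adjusted p = 0.547), -0.12 in PS (SE 0.45, interval -1.08 to 0.84, limma adjusted p = 1.0) and 0.89 in AS (SE 0.45, interval -0.07 to 1.85, limma adjusted p = 0.540). Its average was 0.46 (interval -0.07 to 0.9985, limma adjusted p = 0.427), and the DEX effects in AS and PS differed by 1.01 (interval -0.34 to 2.37, limma adjusted p = 0.869). With 1 library left out at a time the difference ran from 0.27 (without con_dex_122) to 0.84 in controls, where it was 0.35 without con_sal_104. In AS it ran from 0.47 (without dep2_dex_42) to 1.32, and in PS it took either sign. The difference between AS and PS was 0.59 without dep2_dex_42.

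Oprk1 after DEX was at 1365 ± 101.1 (SD, n = 3) against 1244 ± 261 (SD, n = 3) in controls, at 1365 ± 265 (SD, n = 3) against 1096 ± 92.8 (SD, n = 2) in PS and at 1378 ± 111 (SD, n = 2) against 1270 ± 62.6 (SD, n = 3) in AS. The groups overlapped in each phenotype, and the average difference was 0.19 (SE 0.10, interval -0.02 to 0.40, limma adjusted p = 0.398). Oprl1 had an average difference of -0.09 (SE 0.07, interval -0.24 to 0.07, limma adjusted p = 0.584), and the differences within phenotypes were -0.16 (controls), -0.11 (PS) and 0.0076 (AS). Oprl1 had the narrowest intervals of the 5 receptors. Hcrtr1 was at 2224 ± 75.9 (SD, n = 3) after DEX against 2773 ± 563 (SD, n = 3) in controls, a log2 difference of -0.30 (interval -0.65 to 0.06, limma adjusted p = 0.484). Its differences were -0.16 in PS and 0.06 in AS, with an average of -0.13 (SE 0.10, interval -0.35 to 0.09, limma adjusted p = 0.564).

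**Figure D2:**
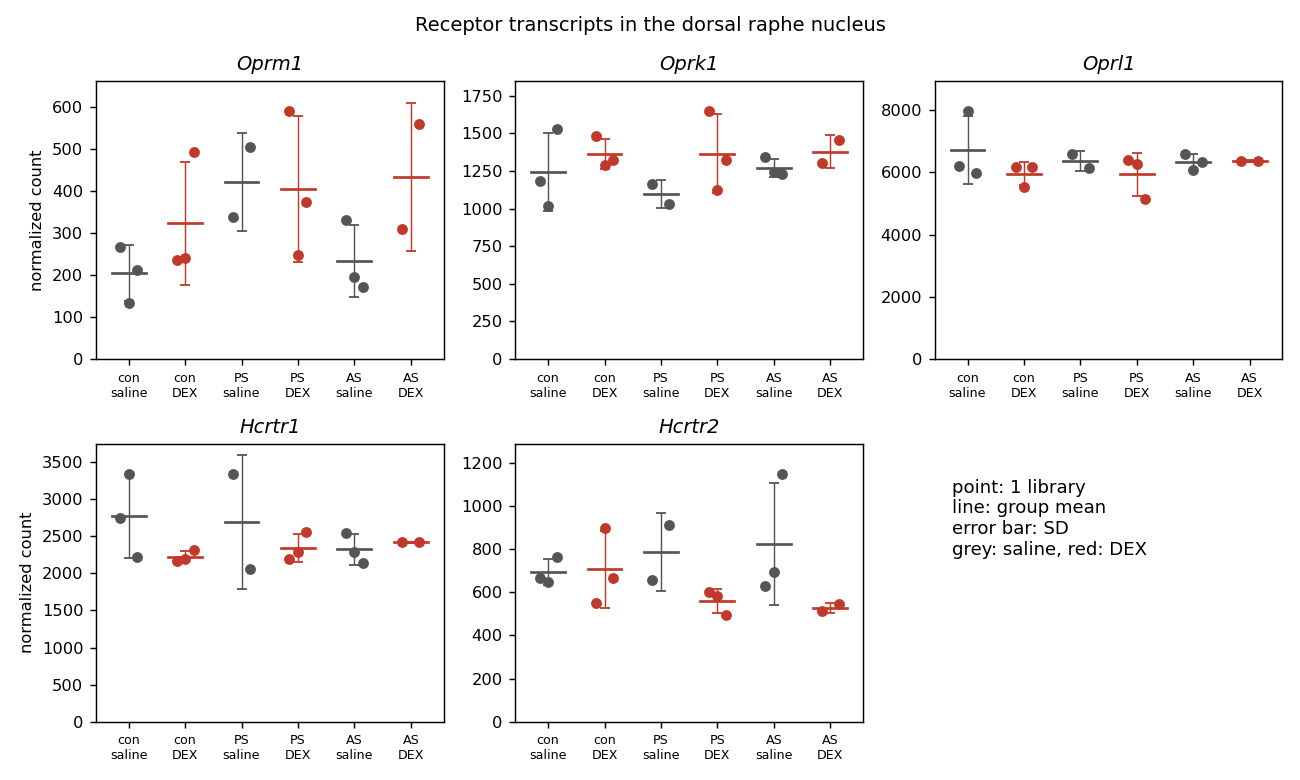
Normalized counts of the 5 receptors in each library by group (con, control; PS, passive coping; AS, active coping), with the group mean (line) and SD (error bar). Hcrtr2 is lower in every DEX library than in every saline library in PS and in AS but not in controls. Of all genes, 21.3% did not overlap in either direction in PS, 29.8% in AS and 15.9% in controls. Limma called Hcrtr2 in none of the phenotypes, nor the differences between phenotypes in its DEX effect. Oprm1 shows the widest scatter within groups.

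The effect of chronic stress was then read from the saline libraries. Among all genes, 0% passed between PS and control, 0% between AS and control and 0% between AS and PS, so that 0 of 5 receptors were called as well. At an unadjusted p under 0.05 limma passed 1112 genes, 347 genes and 494 genes in these comparisons, which are 7.67%, 2.39% and 3.41% of all genes, among them 1, 0 and 0 of the receptors. DESeq2 called 4, 11 and 1 genes (0.0276%, 0.0758% and 0.00689%) and edgeR 0 in each, none of them a receptor. The receptor below 0.05 was Oprm1.

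Oprm1 was higher in both PS saline libraries (339 and 504) than in the 3 control saline libraries (134 to 268) and the 3 AS saline libraries (172 to 332). The log2 difference between PS and control was 1.07 (SE 0.45, interval 0.11 to 2.02, limma adjusted p = 0.571). AS differed from PS by -0.88 (SE 0.45, interval -1.84 to 0.08, limma adjusted p = 0.728) and from control by 0.18 (SE 0.40, interval -0.67 to 1.04, limma adjusted p = 0.998). Averaged over saline and DEX, PS lay above control by 0.69 (SE 0.30, interval 0.05 to 1.34, limma adjusted p = 0.557). For PS against control in saline, 1 of 5 receptors did not overlap between groups, beside 28.5% of all genes. Between AS and PS 2 of 5 receptors did not overlap, Oprm1 lower and Oprk1 higher in AS, beside 23.6% of all genes, and between AS and control 0 of 5, beside 4.49%.

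The same libraries differed in other markers. Library dep1_sal_68, with the higher Oprm1 value of PS saline, had the lowest score of all libraries for dopamine neurons (-1.09) and the highest for motor neurons (2.899). The part of these cells in the value of Oprm1 was not tested.

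Oprk1 was at 1162 (dep1_sal_62) and 1030 (dep1_sal_68) in PS saline, below all 3 AS saline libraries (1227 to 1341), with a log2 difference of 0.21 for AS against PS (SE 0.17, interval -0.16 to 0.59, limma adjusted p = 0.728). Against control it was -0.16 in PS and 0.05 in AS. Oprl1 differed by -0.06 for PS and by -0.07 for AS against control, with intervals from -0.34 to 0.21 and from -0.32 to 0.17. Hcrtr1 differed by -0.06 for PS (interval -0.46 to 0.33) and by -0.24 for AS (interval -0.59 to 0.12). Hcrtr2 differed by 0.16 for PS (interval -0.37 to 0.70) and by 0.20 for AS (interval -0.28 to 0.68). None of these 8 differences of the other receptors passed an unadjusted 0.05.

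Averaged over both treatments, 0 of 5 receptors were called between PS and control (0% of all genes), between AS and control (0.0138%) and between AS and PS (0%). The 3 differences between phenotypes in the DEX effect gave 0 of 5 receptors too, with 0% of all genes in each. At an unadjusted p under 0.05, 1 receptor (Oprm1 in PS against control) passed in the averages and 0 in the differences between DEX effects. Of all genes, 6.48% passed in the averages between PS and control, 2.1% between AS and control and 1.91% between both stressed phenotypes. The DEX effects of PS and controls differed at this level for 2.1% of all genes, those of AS and controls for 4.02% and those of AS and PS for 2.9%. Under DEX alone the phenotypes were compared only by overlap. Between AS and control 3 of 5 receptors did not overlap (Oprl1 and Hcrtr1 higher, Hcrtr2 lower in AS), beside 30.3% of all genes. Between PS and control 0 of 5 did not overlap, beside 7.66%, and between AS and PS 0 of 5, beside 19.1%. Of 65 tests of a receptor in all, 4 fell under an unadjusted 0.05 and 0 were called.

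**Figure D3:**
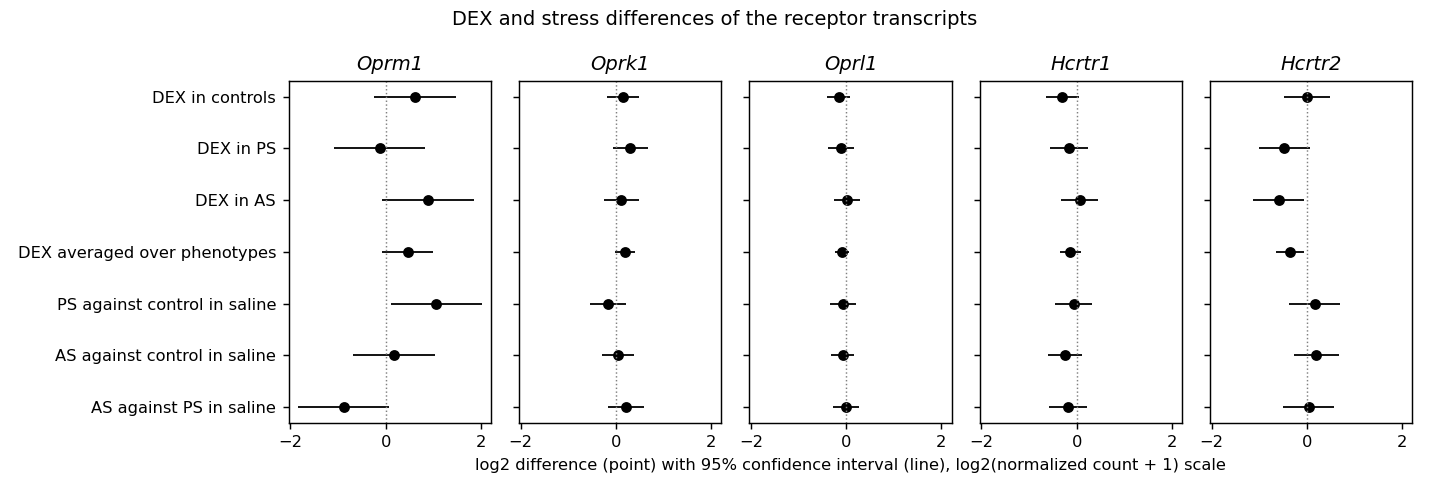
Log2 difference (point) and 95% confidence interval (line) of each receptor for the DEX effects and the stress comparisons in saline. The intervals of Oprm1 are the widest, and those that exclude 0 belong to Hcrtr2 (DEX in AS and averaged) and Oprm1 (PS against control in saline).

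Peptide precursors and signaling genes of these receptors were examined as a list of 59 genes, of which 56 were measured. In the DEX effect averaged over phenotypes 2 of them were called higher and 1 lower in limma, beside 4.31% of all genes, and 0 were called within a phenotype or in the saline comparisons. At an unadjusted p under 0.05 limma passed 9 of them for DEX in controls, 3 in PS and 5 in AS, beside 12.1%, 4.69% and 9.36% of all genes. For PS or AS against control and AS against PS it passed 6, 1 and 1, beside 7.67%, 2.39% and 3.41%. DESeq2 called 3 for DEX in controls (Prkca, Pnoc and Arrb2, beside 3.01% of all genes) and edgeR 0, and both called 0 in the other comparisons of this kind. For the DEX average DESeq2 called 5 (Prkca, Rgs9, Plcb1, Adcy8 and Arrb2, beside 6.23%) and edgeR 3 (Prkca, Rgs9 and Adcy8, beside 4.29%). The median log2 difference of the list in the DEX average was 0.01, beside -0.0026 for all genes. The 3 genes called by limma lie downstream of the receptors.

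Prkca, the kinase C alpha that Gq signaling activates, was at 2559 to 3801 in saline libraries and at 3771 to 4201 in DEX libraries, and dep1_sal_62 alone reached into the range of DEX. Its average log2 difference was 0.40 (SE 0.08, limma adjusted p = 0.0133), with 0.46 for control, 0.26 for PS and 0.48 for AS mice. Rgs9, which shortens Gi/o signals, rose by 0.37 on average (SE 0.10, limma adjusted p = 0.0885), from 1219 to 2233 in saline libraries to 1736 to 2523 after DEX. Adcy8, a calcium-activated adenylyl cyclase, fell by 0.51 on the log2 scale (SE 0.13, limma adjusted p = 0.0512), from 1061 to 2174 in saline libraries to 885 to 1378 after DEX. The call of Prkca was kept in all 29 other fits, that of Rgs9 was lost in 15 and that of Adcy8 in 6 of them. Adcy8 was not called without dep1_sal_68, dep1_dex_34, dep1_dex_64, dep2_sal_14, dep2_dex_38 or dep2_dex_42 (limma adjusted p 0.103 to 0.215). Rgs9 stayed called without con_sal_102, con_dex_116, dep1_sal_62 or dep2_sal_8, and leaving out any other single library ended its call (limma adjusted p 0.102 to 0.343). With the balance of long and short transcripts, described further on, as a covariate the difference of Rgs9 was 0.24 (limma adjusted p = 0.227).

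Precursors of the receptors' own ligands were present for the opioids. Penk, the precursor of enkephalins, ranged from 2369 to 5294 normalized counts, Pdyn, that of dynorphins, from 787 to 3349, and Pnoc, that of nociceptin, from 873 to 2011. Pomc, that of beta-endorphin, was low, at 47.5 to 116.2. Hcrt, the orexin precursor, was not analysed here. In controls Penk went from 4875 ± 449 (SD, n = 3) after saline to 3312 ± 758 (SD, n = 3) after DEX and Pnoc from 1652 ± 344 (SD, n = 3) to 981 ± 59.9 (SD, n = 3), with no overlap of the libraries for either, as for 15.9% of all genes. The log2 differences were -0.58 (interval -1.02 to -0.14, limma adjusted p = 0.295) and -0.73 (interval -1.25 to -0.21, limma adjusted p = 0.264), so neither was called, and DESeq2 alone called Pnoc. In AS the libraries of both genes did not overlap either, with DEX above saline, as 29.8% of all genes did not overlap there in either direction. Penk was at 3985 to 4411 after saline and 4423 to 4530 after DEX, a log2 difference of 0.11 (interval -0.38 to 0.60, limma adjusted p = 0.852). Pnoc was at 890 to 1462 after saline and 1581 to 2011 after DEX, a difference of 0.53 (interval -0.05 to 1.118, limma adjusted p = 0.544). In PS both overlapped. The DEX effect in AS differed from that in controls by 0.69 for Penk (interval 0.03 to 1.35) and by 1.26 for Pnoc (interval 0.48 to 2.05), with a limma adjusted p of 0.941 for each, so neither was called. Pdyn was at 787 in dep1_sal_68, the lowest of all libraries, and at 2059 or more in the other 15.

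**Figure D4:**
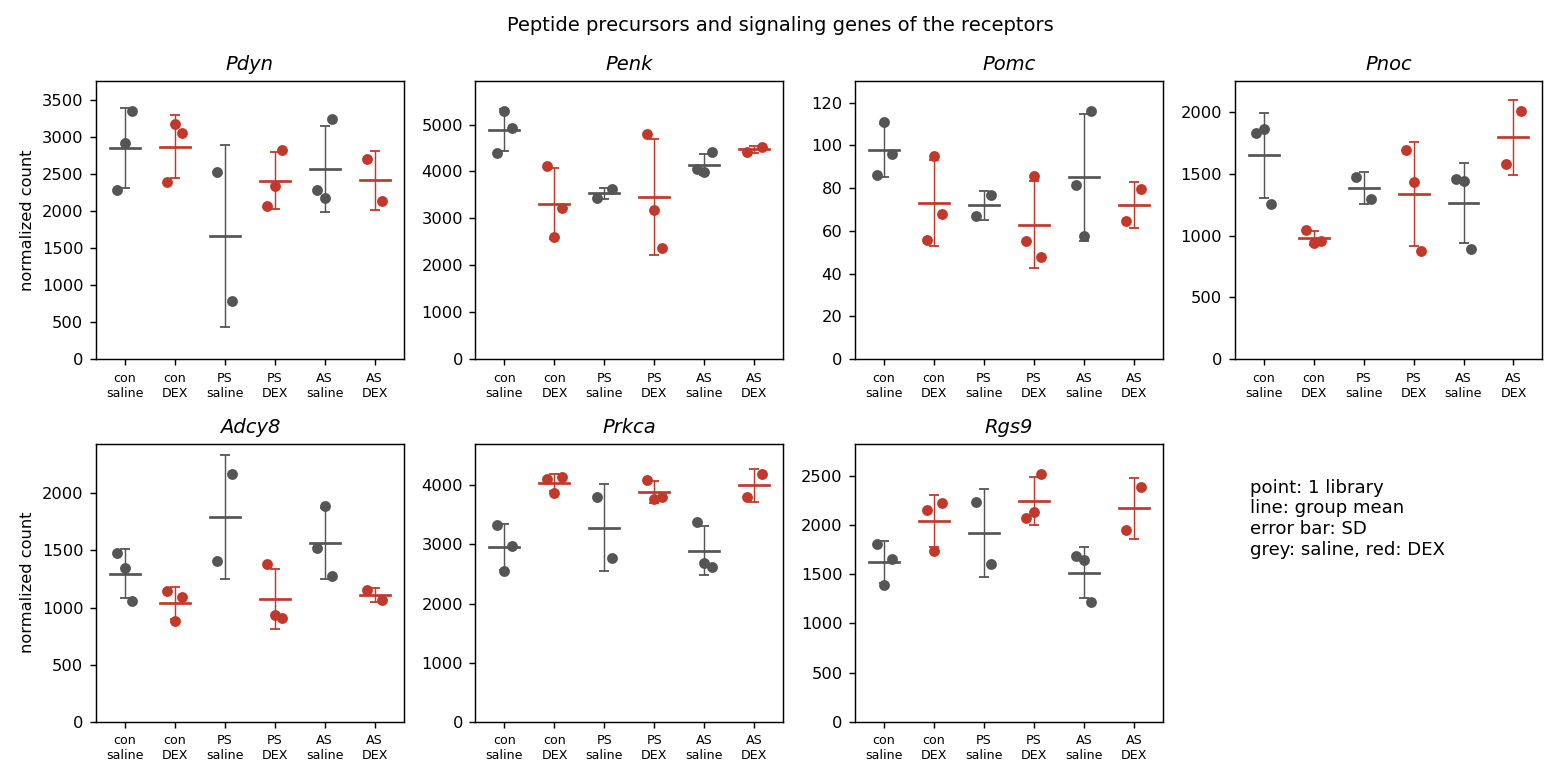
Normalized counts of the 4 opioid precursors and of the 3 signaling genes called for DEX, by library and group with mean (line) and SD (error bar). Prkca is higher and Adcy8 lower after DEX on average over the phenotypes. Penk and Pnoc are lower after DEX in every control library, overlap in PS and are higher after DEX in both AS libraries. Of all genes, 15.9% did not overlap in either direction in controls and 29.8% in AS. Limma called neither Penk nor Pnoc within a phenotype, nor the difference between their DEX effects in AS and controls.

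Groups aside, it was asked whether the receptors varied together from library to library. Of 10 pairs of receptors none reached an adjusted p of 0.1 for Pearson's r or Spearman's rho (100000 permutations, 16 libraries). The closest pair was Oprl1 and Hcrtr1 (r = 0.54, p = 0.0424, adjusted p = 0.372, rho = 0.41, p = 0.118, adjusted p = 0.498, permutation tests), with r = 0.50 without the 2 libraries farthest from the median of Oprl1. Of 25 relations with the scores of serotonin, dopamine, GABA and glutamate neurons and ependymal cells, none reached it either. The strongest was a lower Oprk1 in libraries with a higher serotonin neuron score (r = -0.61, p = 0.0123, adjusted p = 0.194, rho = -0.63, p = 0.0111, adjusted p = 0.277, permutation tests), which was -0.42 without the 2 farthest libraries. With the group means removed, no relation passed in both measures either, and a lower Hcrtr2 went with a higher Hcrtr1 (rho = -0.72, p = 0.00243, adjusted p = 0.0243, r = -0.57, p = 0.0204, adjusted p = 0.204, permutation tests), with r = -0.49 without the 2 farthest libraries. These permutations treat the values left after removing group means as free of each other, which they are not, so their p-values can be too small.

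A measure of the libraries' RNA did move with Oprm1. After these values were seen, a score of long against short transcripts was made: the mean log2 deviation of the 1286 genes whose longest annotated transcript has at least 6964 bases minus that of the 1288 genes with at most 1447 bases, none of them a receptor. It ranged from -0.78 (dep2_sal_40) to 0.35 (dep1_dex_6). Oprm1 followed it with r = 0.86 (p = 1e-05, the smallest these permutations can give, adjusted p = 5e-05 over 5 receptors) and rho = 0.90 (permutation p = 1e-05, adjusted p = 5e-05), and r was 0.85 without the 2 libraries farthest from the median. With group means removed r was 0.77 (permutation p = 0.00045, adjusted p = 0.00225), in the same direction. Values left after removing group means are tied to each other within a group, and the permutations treat them as free. The permutation p-values with group means removed can therefore be too small. Of 12863 genes with a mean of at least 100, 93.9% had a lower r with this score than Oprm1. Hcrtr2 had r = -0.53 (permutation p = 0.0339, adjusted p = 0.0848) and rho = -0.42 (permutation p = 0.106, adjusted p = 0.182), and r was -0.32 without the 2 farthest libraries. Of the same 12863 genes, 25.4% had a lower r with the score than Hcrtr2. With group means removed its r was -0.57 (permutation p = 0.021, adjusted p = 0.0526) and its rho -0.435 (permutation p = 0.0939, adjusted p = 0.157), with r = -0.46 without the 2 farthest libraries. For Oprk1, Oprl1 and Hcrtr1 r was 0.34, -0.35 and -0.15, and none had an adjusted p under 0.1.

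Control saline libraries had scores of -0.68 to 0.07 and PS saline libraries of 0.17 and 0.28, which did not overlap. With the score as a covariate the difference of Oprm1 between PS and control in saline was 0.35 in place of 1.07 (limma adjusted p = 0.999, range over the alternatives 0.230 to 0.999), and that between DEX and saline was 0.06 in place of 0.62 in controls (adjusted p = 0.9565, range over the alternatives 0.335 to 0.990) and 0.37 in place of 0.89 in AS (adjusted p = 0.999, range 0.124 to 1.0). For Hcrtr2 the average DEX difference was -0.22 in place of -0.36 (limma adjusted p = 0.617). Group and score cannot be told apart in the saline comparison of PS and control.

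**Figure D5:**
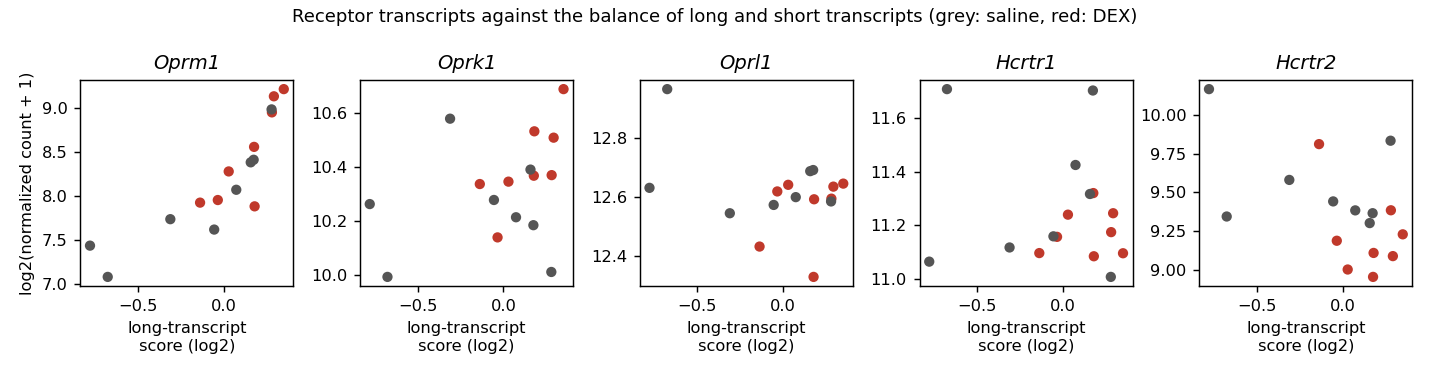
Log2(normalized count + 1) of each receptor against the long-transcript score of the library (grey saline, red DEX; 1 point per library, 16 libraries). Oprm1 rises with the score across libraries of both treatments (r = 0.86), and Oprk1, Oprl1 and Hcrtr1 show no such relation at an adjusted p of 0.1.

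The genes most like each receptor over the 16 libraries are given as a description. Oprm1 was followed most closely by Shc3, an adaptor protein gene of neurons (r = 0.94), and by 4932438A13Rik (r = 0.93). Oprk1 was followed by Btbd3 (r = 0.86) and Thrb, a thyroid hormone receptor (r = 0.85), and Oprl1 by Spryd3 (r = 0.96) and Tmed9 (r = 0.94). Hcrtr1 was followed by Tkfc (r = 0.84) and Slc52a2, a riboflavin transporter (r = 0.81), and Hcrtr2 by Mapre1, a microtubule end-binding protein gene (r = 0.91), and Elavl2, a neuronal RNA-binding protein gene (r = 0.90). The points share depth and tissue composition, and the median size of r over all 12863 genes was 0.45 for Oprm1, 0.41 for Hcrtr2, 0.31 for Oprl1, 0.24 for Hcrtr1 and 0.23 for Oprk1.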

How the data were processed

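Per the labels and the study's methods, the authors trimmed reads with fastp 0.20.1, aligned them with HISAT2 2.2.1 to mm10 (GRCm38), counted them per gene with featureCounts (Subread 2.0) and the GENCODE vM22 annotation, and fitted DESeq2 1.36.0. The signal values the authors deposited are normalized counts: reads divided by 1 size factor per library. All values times that factor were whole (100%, within 0.01), which gave the reads. Deposited comparison tables hold the authors' fold changes and p-values and were not used.

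Log2(normalized count + 1) was fitted with limma 3.58.1 in R 4.3.3, with 1 mean for each of 6 groups over 16 libraries and a mean-variance trend. P-values were adjusted by Benjamini-Hochberg over all 14504 genes, and an adjusted p under 0.1, the study's threshold, was called. The log2 scale with a pseudocount of 1 understates changes of low genes. DESeq2 1.42.0, edgeR 4.0.16 and other settings served as alternatives, and the scripts were tested on simulated data. No 2 libraries of a group were copies: chi-square per degree of freedom was 22.4 or more in the 14 pairs within groups, the only pairs tested. Gene lengths came from GENCODE vM21. Genes were named by a rule: all members, ligand precursors, called genes of the pathway list and the 2 genes most like each member. Members and lists were chosen with earlier results of these data known. The planned 15 pairs became 10 as Oprd1 was not analysed.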

Additional observations from a re-analysis of the deposited data

How the results depend on the processing

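The count of receptors called was 0 in each of the 13 comparisons under pseudocounts of 0.1 or 10, a minimum mean of 100, TMM scaling, quantile normalization, fits on only the groups compared, DESeq2, edgeR, serotonin and ependymal scores as covariates and each library left out, except that array weights called 1 receptor (Hcrtr2) for DEX averaged over phenotypes. The estimate of those weights stopped before it converged, and gene-by-gene array weights, added after seeing the data, gave 0. A long-transcript score as covariate and the removal of both libraries with the lowest score, chosen after seeing the data, also gave 0. No fit on only the groups compared was run for that average, since it uses all groups. The order of levels and the counts of related pairs were the same in every alternative run. No value of a called gene changed sign. Small receptor differences that were not called did, and the cause was not tested. TMM scaling put Hcrtr2 for DEX in controls at 0.008. DESeq2 put Hcrtr2 for DEX in controls at 0.025. EdgeR put Hcrtr2 for DEX in controls at 0.035 and Oprl1 for DEX in AS at -0.0003. The serotonin neuron score as covariate put Hcrtr2 for DEX in controls at 0.0002 and Oprl1 between AS and PS at 0.0059. The long-transcript score as covariate put Hcrtr2 for DEX in controls at 0.22 and Hcrtr2 between AS and PS at -0.21. The ependymal cell score as covariate put Oprl1 for DEX in AS at -0.0053 and Oprl1 between AS and PS at 0.0064. Leaving out con_sal_104 and dep2_sal_40 together put Oprl1 between PS and control at 0.066, Hcrtr1 between PS and control at 0.084, Oprk1 between AS and control at -0.062, Oprl1 between AS and control at 0.058, Hcrtr2 between AS and control at -0.11 and Hcrtr2 between AS and PS at -0.23. Array weights put Oprm1 between AS and control at -0.043 and Hcrtr2 between AS and PS at -0.16. Gene-by-gene array weights put Hcrtr2 between AS and control at -0.0046 and between AS and PS at -0.1639. Quantile normalization put Oprl1 between AS and PS at 0.010. With 1 library left out at a time, the values that crossed 0 had these ranges. For DEX in controls, values ran for Hcrtr2 from -0.19 to 0.16. For DEX in PS, values ran for Oprm1 from -0.44 to 0.19 and Hcrtr1 from -0.51 to 0.18. For DEX in AS, values ran for Oprl1 from -0.021 to 0.036. Between PS and control, values ran for Oprl1 from -0.14 to 0.066, Hcrtr1 from -0.41 to 0.29 and Hcrtr2 from -0.071 to 0.40. Between AS and control, values ran for Oprm1 from -0.10 to 0.40, Oprk1 from -0.086 to 0.21, Oprl1 from -0.15 to 0.058 and Hcrtr2 from -0.065 to 0.37. Between AS and PS, values ran for Oprl1 from -0.060 to 0.045, Hcrtr1 from -0.52 to 0.17 and Hcrtr2 from -0.23 to 0.27. No paired analysis was possible because library numbers differ between groups. The lowest receptor value rests on 132 reads, and each group holds 2 or 3 libraries.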
